A study of Mus musculus with 9 samples.

Results

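Nrp2, Cd6 and Ica1 are 3 genes of the 26611 with a symbol in the histone count files. They were chosen by symbol because trimethylation of histone H3 at lysine 27 (H3K27me3) over each was well below the deleted and floxed levels in rescue cells, which carry added Hhex. The H3K27me3 values of rescue against deleted and rescue against floxed therefore chose the genes, and they are given as a description. The cells are mouse MLL-ENL leukemia, a leukemia driven by a fusion of the mixed-lineage leukemia gene with the ENL gene. Chromatin of 3 genotypes was profiled: the rescue line (ΔERT2 + Hhex-F), which carries the deletion and Flag-tagged Hhex, the deleted line (ΔERT2) with no added Hhex, and the line labelled fl, read here as floxed. The labels name neither the floxed gene nor what ΔERT2 stands for, nor the age or number of mice, and they do not say whether a line is a single clone. H3K27me3, H3K4me3 and Flag were immunoprecipitated in each genotype, with 1 library for each combination and 9 libraries in all. No test between genotypes was made, since no group has a second library, and every interval below is a 95% interval for counting error only.

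H3K27me3 is laid down by Polycomb repressive complex 2 (PRC2) and is spread over genes that are kept silent. H3K4me3 marks promoters that are active or held ready for activity, and promoters rich in CpG dinucleotides can carry both marks. Hhex is a homeodomain transcription factor of blood, liver and endothelial development that acts largely as a repressor, and the title of the series places the question on its need for PRC2 repression. Nrp2 and Cd6 encode cell-surface receptors, and Ica1 encodes a cytosolic protein of the secretory pathway.

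The H3K27me3 libraries held 4203349 (rescue), 2535576 (deleted) and 2444487 (floxed) counts in genes with a symbol, over whole gene spans. The H3K4me3 libraries held 395133, 420701 and 645240 counts in the same order of genotypes, in a window of 301 bp per gene, placed where the labels do not say. Levels are compared as CPM, the counts per 1000000 counts of the library. Genes averaging 20 counts or more across a mark's 3 libraries are called measured. A lower or higher call needed a CPM ratio past 1.5 in either direction, with an interval that left out 1. The labelled cell type was checked in the H3K4me3 windows of marker genes. For this mark 6681 of all 26611 genes were measured. Of 15 myeloid and progenitor genes 11 were measured, among them Cebpe, Ctsg, Kit and Spi1. The summed levels of the list were 1790 (rescue), 1550 (deleted) and 1790 CPM (floxed). Not measured were Ptprc with 0 counts in all 3 libraries, Flt3 with 0, 0 and 1, Lyz2 with 0, 2 and 5, and Csf1r with 1, 4 and 10. Of 19 T cell genes 0 were measured, with sums of 119, 85.6 and 69.7 CPM, and Lck and Cd8b1 had 0 counts in all 3 libraries. Of 7 B cell and 4 epithelial genes 1 each was measured, Ebf1 and Cdh1. Of 9 endothelial and stromal genes 2 were measured, Flt4 and Pdgfrb, and of 5 erythroid genes 0.

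Nrp2 encodes neuropilin-2, a transmembrane co-receptor that binds class 3 semaphorins together with plexins and binds VEGF-C in lymphatic endothelium. The gene (Entrez 18187) lies at chr1:62703317-62818692 in GRCm38.p6, the assembly of mm10, and its whole span of 115376 bp was counted. H3K27me3 over Nrp2 came to 51 counts in the rescue library, 258 in the deleted library and 225 in the floxed library. At these depths that is 12.1 CPM (9.03 to 16.0) in rescue, 102 CPM (89.7 to 115) in deleted and 92.0 CPM (80.4 to 105) in floxed. The rescue interval lay far below both others, and the deleted and floxed intervals overlapped. Rescue against deleted gave a CPM ratio of 0.119 (0.0865 to 0.162), or -3.04 on the log2 scale. Rescue against floxed gave 0.132 (0.0953 to 0.179), or -2.89 on the log2 scale. Deleted against floxed gave a ratio of 1.11 (0.921 to 1.33), which was not called. In bulk chromatin, fewer cells carrying the mark and less mark per cell cannot be told apart.

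H3K4me3 in the window of Nrp2, which the choice of the genes did not use, was high in all 3 libraries. The window held 108 counts in rescue, 123 in deleted and 156 in floxed, or 273 CPM (224 to 330), 292 CPM (243 to 349) and 242 CPM (205 to 283). These levels stood at percentile 94.1 in rescue, 95.6 in deleted and 91.6 in floxed, among the 6681 genes measured for this mark. No pair was called: the ratio was 0.935 (0.715 to 1.22) for rescue against deleted, 1.13 (0.876 to 1.45) for rescue against floxed and 1.21 (0.947 to 1.54) for deleted against floxed. With libraries scaled to the olfactory receptor genes, these ratios lay at 1.20, 1.39 and 1.16 in the same order, and none was called. Those genes are silent in blood cells and served as a background. Over all measured genes, 5.97% were lower and 4.49% higher in rescue against deleted, 3.92% and 1.92% in rescue against floxed, and 4.39% and 3.02% in deleted against floxed. Olfactory receptor scaling gave 133 genes lower and 1555 higher in place of 399 and 300 in rescue against deleted. It gave 77 and 820 in place of 262 and 128 in rescue against floxed, and 398 and 140 in place of 293 and 202 in deleted against floxed. Nrp2 thus had counts of both marks in deleted and floxed, and in rescue a filled H3K4me3 window beside the low H3K27me3 over the gene.

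The sequence before the Nrp2 start is shown because the H3K4me3 window of this gene was filled and that of Ica1 was nearly empty. Sequences run from 250 bases before to 50 bases after the transcription start, are credited to RefSeq (GRCm38.p6) and have each CpG in capitals. Nrp2 is at chr1:62703067-62703366 on the plus strand. Ica1 has a promoter entry at chr6:8778435-8778734 and another, inside the gene, at chr6:8758409-8758708, both on the minus strand. Nrp2 and Ica1 matched the promoter table.
Nrp2: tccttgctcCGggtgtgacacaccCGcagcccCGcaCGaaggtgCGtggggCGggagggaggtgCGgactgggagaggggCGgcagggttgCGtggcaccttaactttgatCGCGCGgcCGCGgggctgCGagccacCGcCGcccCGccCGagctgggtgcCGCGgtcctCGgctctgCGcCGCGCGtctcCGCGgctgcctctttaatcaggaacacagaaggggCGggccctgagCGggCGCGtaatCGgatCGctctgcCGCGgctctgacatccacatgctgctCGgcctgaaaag
Ica1, outer start: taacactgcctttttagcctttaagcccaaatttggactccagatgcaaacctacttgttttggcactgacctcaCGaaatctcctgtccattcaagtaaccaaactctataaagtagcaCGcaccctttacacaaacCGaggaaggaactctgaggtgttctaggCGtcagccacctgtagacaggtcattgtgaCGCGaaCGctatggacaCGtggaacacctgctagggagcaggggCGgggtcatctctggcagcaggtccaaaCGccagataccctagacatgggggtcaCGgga
Ica1, inner start: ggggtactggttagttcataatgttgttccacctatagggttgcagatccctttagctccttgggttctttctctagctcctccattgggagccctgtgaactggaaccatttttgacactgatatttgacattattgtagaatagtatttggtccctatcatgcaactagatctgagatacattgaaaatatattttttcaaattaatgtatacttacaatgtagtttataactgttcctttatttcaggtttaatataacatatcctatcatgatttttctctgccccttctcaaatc
The Nrp2 promoter holds 37 CpG dinucleotides and 70.7% G and C, at percentiles 94.4 and 91.4 of the 32851 promoters of the table. The outer Ica1 promoter holds 11 CpG dinucleotides and 51.3% G and C, against medians of 7 and 52.7% over all promoters. The inner Ica1 promoter holds 0 CpG dinucleotides and 35.3% G and C. The letters ATTAA, which occur in the recognition sequence described for Hhex, were searched on both strands and are present in the Nrp2 promoter and the inner Ica1 promoter, and not in the outer Ica1 promoter. They are found in 27.1% of all promoters of this length. The letters TAATTA, which read the same on both strands and can share bases with ATTAA, are in none of the 3 windows and in 5.29% of all promoters. These matches describe letters and not binding.

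Cd6 encodes a T cell surface receptor of the scavenger receptor cysteine-rich family that binds ALCAM on other cells and tunes T cell receptor signalling. The gene (Entrez 12511) lies at chr19:10789339-10830062, and 40720 bp were counted. H3K27me3 over Cd6 came to 473 counts in rescue, 767 in deleted and 617 in floxed, or 113 CPM (103 to 123), 302 CPM (281 to 325) and 252 CPM (233 to 273). Rescue was again lowest with no overlap of intervals, but more of the mark was left than at Nrp2. The CPM ratio of Cd6 came to 0.372 (0.331 to 0.418) in rescue against deleted, or -1.42 on the log2 scale. In rescue against floxed it came to 0.446 (0.395 to 0.503), or -1.16 on the log2 scale. Deleted against floxed had a ratio of 1.20 (1.08 to 1.33), which was under the 1.5 needed for a call. The H3K4me3 window of Cd6 held 1 count in rescue, 0 in deleted and 2 in floxed, so Cd6 was not measured for H3K4me3 and no change of it was detectable at this depth. In the deleted library a count of 0 allows up to 7.13 CPM by a limit of 3 counts, and the upper end of its exact Poisson interval is 8.77 CPM. Cd6 is itself a T cell gene, and the summed H3K4me3 level of the 19 T cell markers stood at 119 CPM in rescue, against 85.6 in deleted and 69.7 in floxed. These sums rest on few counts, with 0 of the 19 genes measured. The gene with most counts in rescue, Cd28, held 12 there, 9 in deleted and 9 in floxed. No difference between the sums is read from so few counts. The part of other cells in the Cd6 values was not tested.

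Ica1 encodes islet cell autoantigen 1, a BAR domain protein related to the arfaptins that binds the small GTPase Rab2 and the scaffold PICK1 at the Golgi and on immature secretory granules. The gene (Entrez 15893) lies at chr6:8630527-8778540, and 147958 bp were counted. H3K27me3 over Ica1 came to 48 counts in rescue, 239 in deleted and 203 in floxed. That is 11.4 CPM (8.42 to 15.1) in rescue, 94.3 CPM (82.7 to 107) in deleted and 83.0 CPM (72.0 to 95.3) in floxed. The course was nearly the same as that of Nrp2, on another chromosome. Both genes were chosen by rescue against deleted and floxed, which favours such a likeness. Ica1 had a CPM ratio of 0.121 (0.0869 to 0.166) in rescue against deleted, or -3.01 on the log2 scale, and of 0.138 (0.0982 to 0.189) in rescue against floxed, or -2.83. Deleted against floxed had a ratio of 1.14 (0.937 to 1.38) and was not called. The H3K4me3 window of Ica1 held 0 counts in rescue, 0 in deleted and 1 in floxed. An empty window does not show that the promoter lacks the mark, since the leukocyte gene Ptprc also had 0 counts in all 3 libraries and the labels do not say where the windows lie.

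**Figure D1:**
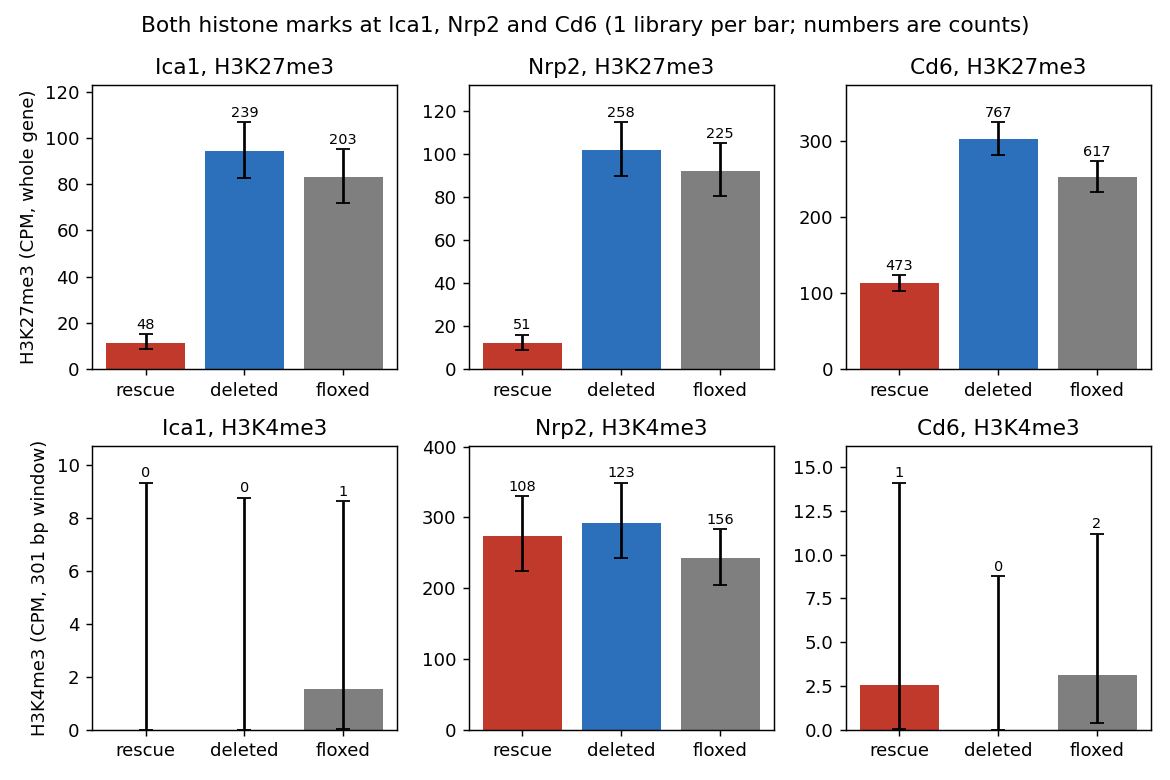
H3K27me3 over the gene (upper row) and H3K4me3 in the 301 bp window (lower row) at Ica1, Nrp2 and Cd6, in CPM on axes that start at 0. Each bar is 1 library (rescue, deleted, floxed), error bars are 95% exact Poisson intervals and the numbers are counts. H3K27me3 in rescue is the lowest bar in all 3 genes, and only Nrp2 has a filled H3K4me3 window, with 108, 123 and 156 counts.

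All 3 genes were called lower in rescue than in deleted, a call made for 11.3% of the 10604 measured genes while 7.07% were higher, and lower in rescue than in floxed, a call made for 8.05% while 5.72% were higher. Both calls together were made for 559 genes, or 5.27%. With olfactory receptor scaling, 808 genes were lower and 1244 higher in rescue against deleted, in place of 1196 and 750, and all 3 genes were still called. These counts follow from the choice of the genes and say nothing further about them. No fixed threshold was given for the choice. Ranked by the larger of both ratios, Nrp2 was at place 3 and Ica1 at place 4 of the 559 genes. Around them stood Hoxb4 with 1 count in rescue, 24 in deleted and 35 in floxed, Mmp12 with 6, 39 and 27, and Syna with 7, 30 and 35. Among the 208 of these genes that averaged 100 counts or more, Nrp2 and Ica1 held places 1 and 2 and Cd6 place 48. Cd6 stood at place 149 of all 559, between B130024G19Rik with a larger ratio of 0.445 and Gabbr1 with 0.448. None of the 3 genes was called in deleted against floxed, where 5.39% of measured genes were lower and 4.72% higher (572 and 500 genes, or 1180 and 235 with olfactory receptor scaling).

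**Figure D2:**
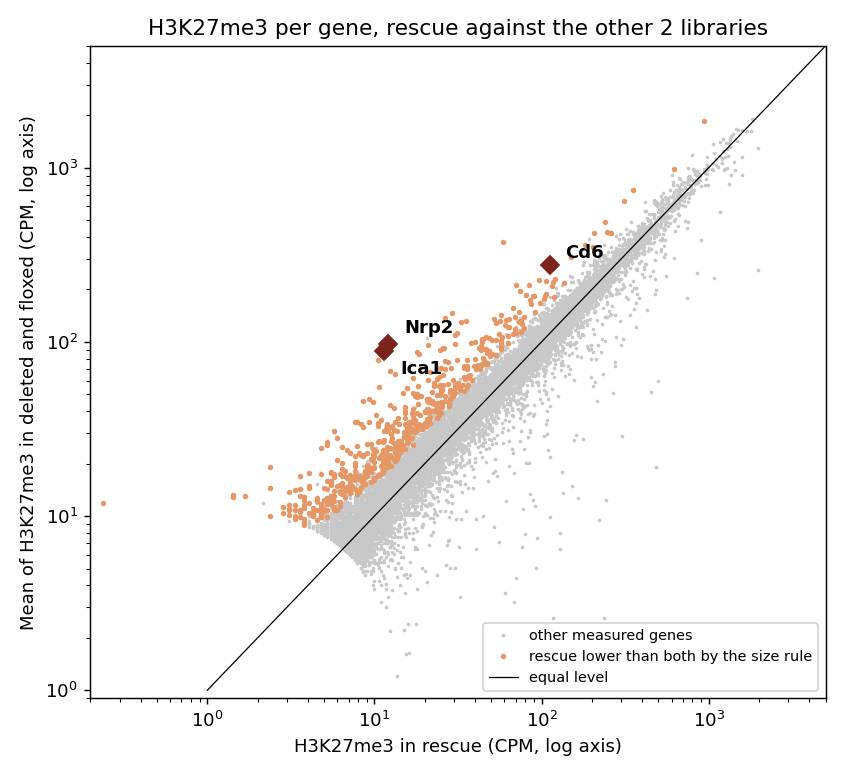
H3K27me3 per measured gene in rescue (x axis, CPM, log scale) against the mean of deleted and floxed (y axis, CPM, log scale), with the line of equal level. Genes with 0 counts in rescue are not drawn. Ica1 and Nrp2, at 11.4 and 12.1 CPM in rescue, lie together far above the line, and Cd6 lies nearer to it at 113 CPM.

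Per length, the 3 genes had different levels of the mark. Cd6 was densely marked, with 2.76 CPM per kb in rescue against 7.43 in deleted and 6.20 in floxed, at percentiles 66.9, 89.8 and 85.2 of measured genes. Its level in rescue was thus still above that of most measured genes. Nrp2 had 0.105 CPM per kb in rescue, against 0.882 in deleted and 0.798 in floxed, at percentiles 6.38, 33.3 and 33.7. Ica1 had 0.0772 CPM per kb in rescue, against 0.637 in deleted and 0.561 in floxed, at percentile 2.02 in rescue and 28.1 in both others. Averaged over its whole length, neither gene was densely marked in deleted or floxed for a measured gene. Measured genes leave out those with few counts. Among all named genes, Nrp2 stood at percentile 30.5 in rescue, 67.2 in deleted and 67.1 in floxed. Ica1 stood there at percentiles 22.5, 63.1 and 63.4 in the same order. Where within a gene the counts lie is not given, so a dense part of either gene cannot be seen.

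The 5 nearest genes on each side reach as far as 3320 kb from Ica1 and 1930 kb from Nrp2 but 141 kb from Cd6, so the 3 stretches are not compared with each other. Beside Ica1, Glcci1 lies 33.0 kb away and had 0.0866 CPM per kb of H3K27me3 in rescue, and Umad1 had 0.0926. The Ica1 level of 0.0772 CPM per kb in rescue was close to these. On the other side, Nxph1, which encodes the neurexin ligand neurexophilin 1, lies 170 kb away. It had 562 counts in rescue, 326 in deleted and 333 in floxed, with a ratio of 1.04 (0.906 to 1.20) for rescue against deleted. Of 4 measured genes around Ica1, 1 was called lower than deleted and 0 lower than floxed, beside 11.3% and 8.05% of all measured genes. The lower gene was Glcci1, which held 32, 39 and 22 counts at 0.495 (0.300 to 0.811) times the deleted level. Glcci1 and Umad1 had H3K4me3 windows with 75 and 26 counts in rescue, against 62 and 35 in deleted and 129 and 45 in floxed.

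Beside Nrp2, Pard3b, a cell polarity gene 61.0 kb away and 1003461 bp long, had 2994 counts in rescue, 1823 in deleted and 1411 in floxed, with a ratio of 0.991 (0.934 to 1.05) for rescue against deleted. The density of Pard3b was 0.710 CPM per kb in rescue, 0.716 in deleted and 0.575 in floxed, against 0.105 for Nrp2 in rescue. Beyond the other end, Ino80d, a subunit gene of the INO80 remodelling complex 229 kb away, had 35, 15 and 7 counts and was not measured. Of 4 measured genes around Nrp2, 1 was lower than both, beside 5.27% of all measured genes. It was the T cell costimulatory receptor gene Cd28, which lies 1930 kb away. Cd28 had 67 counts in rescue, 86 in deleted and 64 in floxed, and Icos and Ctla4, which lie between it and Nrp2, were not called in rescue against either library. With TMM or DESeq2 scaling 1 of the 4 genes, Ctla4, was higher in rescue than in floxed. Ctla4 had 68 counts in rescue, 45 in deleted and 25 in floxed, at 1.58 (0.987 to 2.61) times the floxed level under the main scaling. In deleted against floxed Ctla4 was called higher, with a ratio of 1.74 (1.04 to 2.95), beside 4.72% of all measured genes. 4930487H11Rik lies within the span of Nrp2 and had 0 H3K27me3 counts in all 3 libraries.

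Around Cd6, H3K27me3 was lower at several genes and others had no call. Of 7 measured flanking genes, 3 were lower in rescue than in both other libraries, against 5.27% of all measured genes. Tmem109, a membrane protein gene 40.6 kb from Cd6, had 128 counts in rescue, 255 in deleted and 228 in floxed, with ratios of 0.303 (0.243 to 0.376) against deleted and 0.326 (0.261 to 0.407) against floxed. Cd5, the closest relative of Cd6 and likewise a receptor on T cells, had 119, 147 and 118 counts, with ratios of 0.488 (0.380 to 0.626) and 0.586 (0.451 to 0.763). Slc15a3, a lysosomal peptide and histidine transporter gene 12.5 kb away, held 440, 425 and 482 counts, with ratios of 0.625 (0.545 to 0.715) and 0.531 (0.465 to 0.605). With olfactory receptor scaling 2 genes around Cd6 were lower than both, and with a 2-fold rule 1. A430093F15Rik, between Cd5 and Cd6, had ratios of 0.724 (0.640 to 0.820) and 0.773 (0.681 to 0.879), which were under the size needed for a call.

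Tmem132a lies between Slc15a3 and Tmem109 and did not follow them. It had 692 H3K27me3 counts in rescue, 393 in deleted and 497 in floxed, with a ratio of 1.06 (0.937 to 1.21) against deleted and 0.810 (0.721 to 0.910) against floxed. Its annotated end overlaps Slc15a3, and whether counting used strand is not stated, so reads in the overlap are uncertain. Zp1 and Pga5, at the ends of the stretch, were not called, with ratios of 0.962 (0.774 to 1.20) and 0.938 (0.704 to 1.26) against deleted. The H3K4me3 window of Slc15a3 had 20 counts in rescue, 29 in deleted and 28 in floxed, and no pair was called.

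**Figure D3:**
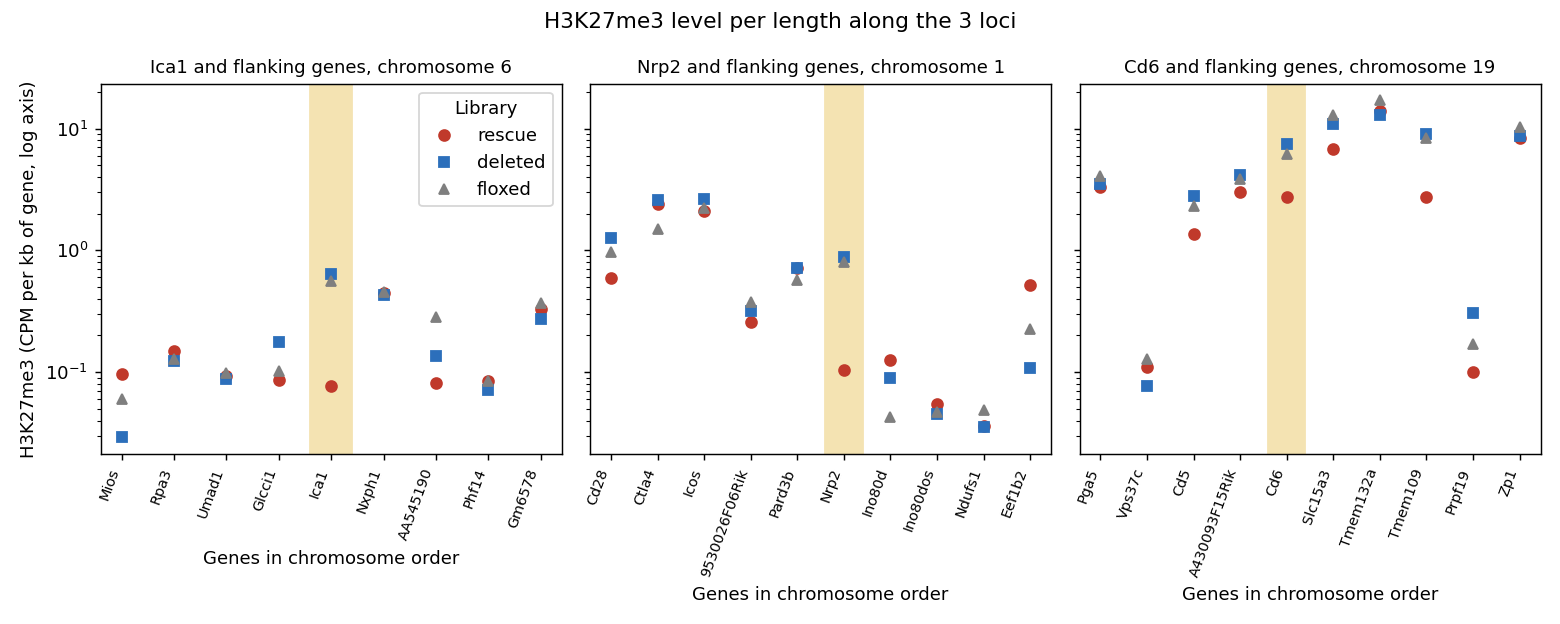
H3K27me3 in CPM per kb of gene (log axis) for Ica1, Nrp2 and Cd6 (shaded) and their flanking genes in chromosome order, 1 point per library (rescue circles, deleted squares, floxed triangles). Genes with 0 counts in any library are not drawn. The rescue point is far below the others at Ica1 and Nrp2, whose neighbours Nxph1 and Pard3b have near-equal rescue and deleted points, while beside Cd6 it is also below at Cd5, Slc15a3 and Tmem109. Points of genes under 20 counts on average scatter widely.

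No called Flag summit lay near any of the 3 genes. The authors' summit lists held 429 (rescue), 220 (deleted) and 475 (floxed) summits. Of these, 0 lay within 10 kb of Nrp2, Cd6 or Ica1, and 0 within 50 kb. In the rescue list the nearest summit was 3670 kb from Nrp2, 5890 kb from Cd6 and 1000 kb from Ica1. Of 25275 genes with a position, 0.582% had a rescue summit within 10 kb, against 0.324% with a deleted and 0.692% with a floxed summit, and the deleted and floxed lines carry no tag by their labels. At these shares most genes have no summit within 10 kb, so the lack of one does not set the 3 genes apart. The share within 50 kb was not taken. The lists cannot show where Hhex is absent, since they hold called summits only.

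The genes most like each of the 3 were taken by distance in the log2 ratios of rescue against deleted and deleted against floxed, over 3 libraries and among 5120 genes that averaged 100 counts or more. Nrp2 and Ica1 were nearest to each other, at a distance of 0.045. The ratio of rescue against deleted also chose both genes, so the choice itself favours their nearness. Mical3, a flavoprotein monooxygenase gene of the actin cytoskeleton, was next to both, with 44 counts in rescue, 222 in deleted and 170 in floxed. Also among the 5 most alike genes of both were the interleukin-6 receptor gene Il6ra, with 52, 227 and 115 counts, and the ETS factor gene Etv4, with 78, 226 and 198. The H3K4me3 windows of these 3 genes held at most 1 count in any library, unlike that of Nrp2. Nearest to Cd6 were the vitamin D receptor gene Vdr, with 131, 218 and 173 H3K27me3 counts, and Rnf144a, a ubiquitin ligase gene, with 484, 819 and 655. Xylt1, Farp2 and the chemerin receptor gene Cmklr1 followed, with ratios of 0.354, 0.365 and 0.376 for rescue against deleted. Xylt1 and Farp2 had filled H3K4me3 windows, with 126 and 62 counts in rescue, 143 and 54 in deleted and 209 and 103 in floxed.

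Most measured partners of Nrp2 were not called lower in rescue than in both other libraries. That also held for most of all measured genes, of which 5.27% were lower than both, so it does not set the partners apart. The list of neuropilin, semaphorin, plexin and VEGF genes had 27 genes with counts, of which 21 besides Nrp2 were measured for H3K27me3. Of these 21, 3 were lower in rescue than in deleted and 0 were higher. Their median was 0.03 on the log2 scale, beside -0.06 for all measured genes, of which 11.3% were called lower. In rescue against floxed 5 were lower and 0 higher, with a median of -0.13, beside -0.05 and 8.05%. Lower than both were 3 of the 21, beside 5.27% of all measured genes. Against deleted, 1 gene was lower with edgeR's TMM or olfactory receptor scaling and 0 with a 2-fold rule. Flt1, which encodes VEGF receptor 1, had 1076 counts in rescue, 1019 in deleted and 1073 in floxed, with ratios of 0.637 (0.584 to 0.695) and 0.583 (0.535 to 0.635). Sema3c, a semaphorin ligand gene, held 120, 135 and 122 counts, with ratios of 0.536 and 0.572. Figf, which encodes VEGF-D, had 24, 27 and 34 counts and was also lower than both. The VEGF family ligand gene Pgf, with 106, 88 and 97 counts, and Sema3b, with 56, 43 and 49, were lower than floxed and not called against deleted. Plxnc1, a plexin receptor gene, had 551, 243 and 407 counts and was lower in deleted against floxed, with a ratio of 0.576 (0.489 to 0.676). Nrp1, the other neuropilin gene, had 737, 651 and 585 counts, with ratios of 0.683 (0.614 to 0.760) and 0.733 (0.656 to 0.818) that were short of a call. The ligand gene Sema3f, with 914, 522 and 580 counts, and the receptor genes Kdr, Flt4, Plxna1 and Plxna2 were called in rescue against neither library.

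For H3K4me3, 7 genes of this list besides Nrp2 were measured: 2 of them were lower and 1 was higher in rescue than in deleted, beside 5.97% and 4.49% of all genes measured for this mark, shares that olfactory receptor scaling moves as given above. Vegfc, a ligand that signals through Nrp2 and Flt4, had 27 H3K4me3 counts in rescue, 78 in deleted and 83 in floxed, with ratios of 0.369 (0.229 to 0.577) and 0.531 (0.331 to 0.829). Plxna2 held 26, 69 and 52 counts, was lower than deleted at a ratio of 0.401 (0.245 to 0.638), and was higher in deleted against floxed, with a ratio of 2.04 (1.40 to 2.98). Nrp1 had 25, 13 and 32 counts, with a ratio of 2.05 (1.01 to 4.36) against deleted.

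Among ligands, partners and relatives of Cd6, 16 genes besides Cd6 were measured for H3K27me3. Against deleted, rescue was lower at 3 of them and higher at 1, and the median was -0.28 on the log2 scale, beside 11.3%, 7.07% and -0.06 over all measured genes. Against floxed it was lower at 2, Cd5 and Ssc4d, and higher at 3, and the median was 0.07, beside 8.05%, 5.72% and -0.05. Besides Cd5, the lower genes against deleted were Zap70, a T cell receptor kinase gene, with 189, 174 and 96 counts, and the scavenger receptor gene Cd163l1, with 60, 61 and 40. Zap70 was itself higher in deleted against floxed, with a ratio of 1.75 (1.35 to 2.27). Alcam, the ligand of Cd6, had 1002 counts in rescue, 621 in deleted and 485 in floxed and was not called. Loxl2, a lysyl oxidase gene with scavenger receptor domains, was higher, with 1253, 167 and 306 counts and ratios of 4.53 (3.85 to 5.35) and 2.38 (2.10 to 2.71). The scavenger receptor genes Dmbt1, with 684, 361 and 252 counts, and Cd163, with 90, 42 and 32, were higher than floxed and not called against deleted. Of 17 measured T cell markers, Cd5 included, rescue was lower than deleted at 5 and higher at 0, with a median log2 value of -0.20, beside 11.3% and 7.07% over all measured genes. It was lower than floxed at 3, with a median of -0.02, beside 8.05%. Cd28, Cd5 and Tcf7, with 81, 87 and 71 counts at Tcf7, were lower than both, beside 5.27% of all measured genes. Zap70 and Themis were lower than deleted only. With a 2-fold rule 0 T cell markers were lower than both, beside 230 of all 10604 measured genes. Other marker lists also had lower genes. Of 6 measured myeloid and progenitor genes, 2 were lower than both, beside 5.27% of all measured genes. These were Kit with 187, 260 and 255 counts and Csf1r with 32, 42 and 38. Mpo was higher than both with 483, 6 and 5. Of 8 endothelial and stromal genes 2 were lower than deleted, and of 2 erythroid genes 1, beside 11.3% of all measured genes. Of 4 B cell genes 1 was lower than floxed, beside 8.05%, and of 4 epithelial genes 0 were lower than either. For H3K4me3, 4 genes of the Cd6 list were measured and Lcp2, an adaptor gene, was called higher in rescue against deleted, beside 4.49% of all genes measured, with 58, 33 and 90 counts.

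Among the relatives of Ica1 and the genes of dense-core vesicles, 19 genes besides Ica1 were measured for H3K27me3 and 0 were lower in rescue than in either library. Rescue was higher than deleted at 2 of them and higher than floxed at 3, beside 7.07% and 5.72% of all measured genes, of which 11.3% and 8.05% were lower. The medians were 0.12 and 0.07 on the log2 scale. Ica1l, the paralogue of Ica1, had 356 counts in rescue, 232 in deleted and 257 in floxed, with a ratio of 0.926 (0.782 to 1.10) against deleted. Arfip1, an arfaptin gene, had 215, 141 and 119 counts and was not called. Slc30a8, the zinc transporter gene of insulin granules, had 139, 27 and 21 counts, with ratios of 3.11 (2.05 to 4.88) and 3.85 (2.42 to 6.42). Rab2a, whose product binds Ica1, held 45, 8 and 20 counts, at 3.39 (1.58 to 8.33) times the deleted level. Ptprn2, an islet autoantigen gene of granule membranes, had 6018, 2669 and 2153 counts, and Cadps, a vesicle priming gene, had 906, 374 and 290. Both were higher than floxed, with ratios of 1.63 (1.55 to 1.71) and 1.82 (1.59 to 2.08), and were not called against deleted. Pick1, the partner of Ica1, had 11, 8 and 14 H3K27me3 counts and was not measured for that mark. Its H3K4me3 window had 58 counts in rescue, 37 in deleted and 59 in floxed, with ratios of 1.67 (1.09 to 2.59) and 1.61 (1.10 to 2.35), both called higher. Of 7 genes of the list measured for H3K4me3, 2 were higher in rescue than in deleted, beside 4.49% of all genes measured. These were Pick1 and the vesicle calcium sensor gene Syt7, with 59, 40 and 79 counts. Syt7 was not called against floxed. The median log2 ratio of the 7 genes was -0.18 against deleted and -0.33 against floxed, beside 0.03 and -0.01 over all genes measured for this mark.

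**Figure D4:**
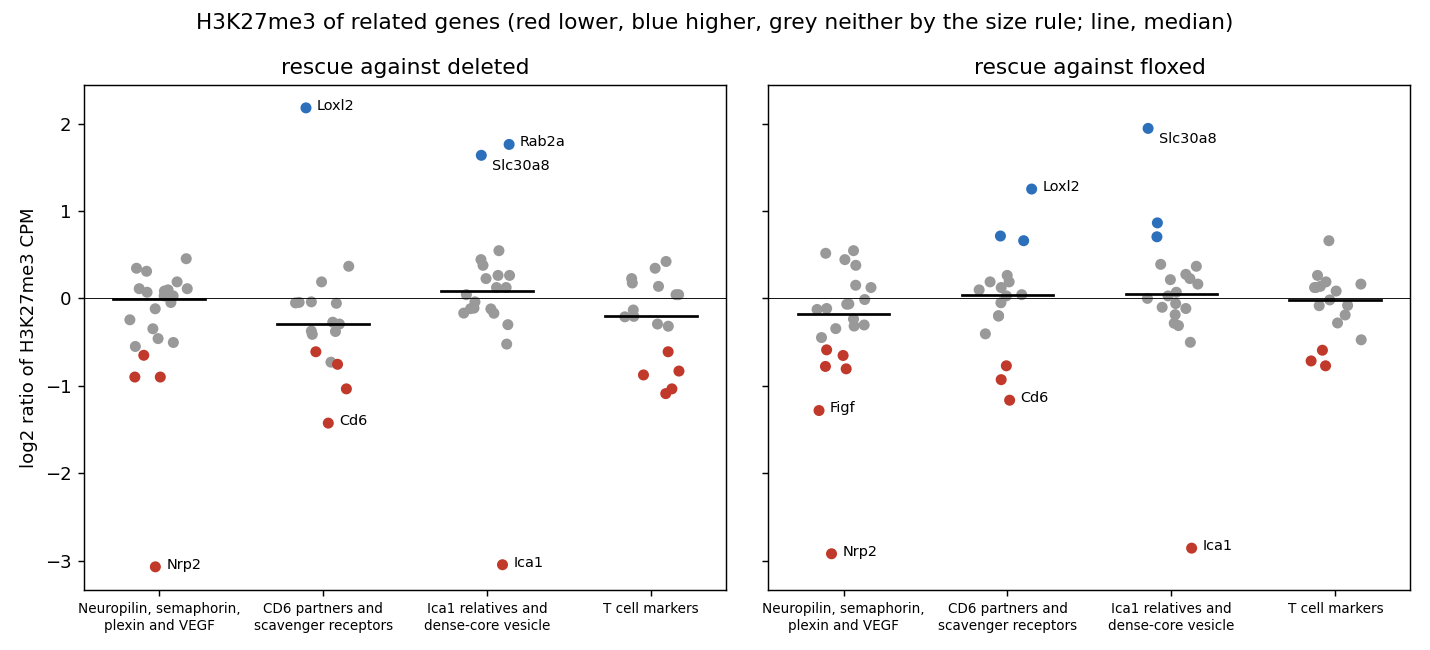
Log2 ratio of H3K27me3 CPM for the measured genes of 4 lists, in rescue against deleted (left) and rescue against floxed (right). Each point is a gene, red for lower, blue for higher and grey for neither by the size rule, and lines are medians of the points. Nrp2 and Ica1 lie near -3 on the axis, apart from the other genes of their lists, while Cd6 is nearer to the rest of its list. These ratios chose the 3 genes, so their low places follow from the choice.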

How the data were processed

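Each of the 6 deposited histone tables gives raw counts for 27179 rows, keyed by Entrez identifier and symbol and with the counted length. featureCounts, MACS2 and the build mm10 are named in the submitters' processing notes without versions or settings, and no aligner is named. By the length column, H3K27me3 was counted over gene spans and H3K4me3 in a window of 301 bp, except for 2 genes. The 568 rows without a symbol, with 0.608% to 0.739% of a library's counts, were left out. The deposited Flag files hold summits with a −log10 score, per the layout of MACS2 summit files.

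Counts were divided by library totals (CPM). Intervals of ratios are exact conditional binomial (Clopper-Pearson), those of levels exact Poisson, and both cover counting error only. PCR copies are not independent molecules. Log2 ratios used a prior count of 1. The calling step was tested on simulated data. Levels per kb used the deposited length. Positions and promoters came from RefSeq tables of GRCm38.p6, with 25275 of 26611 named genes matched by Entrez identifier. The alternatives were edgeR 4.0.16 TMM factors, DESeq2 1.42.0 size factors, scaling to 1123 olfactory receptor genes, totals of all rows, a 2-fold rule, other filters and other prior counts. Work was done in Python 3.11.15 and R 4.3.3.

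The genes and lists were chosen with earlier results of these data known. The text names the 3 genes, 5 flanking genes on each side, the 5 most alike genes for each, and called members of the lists; 1 of the most alike genes is not reported here. Other list members named without a call, the ranked neighbours and the control windows were picked after their values were seen. No input library was used here, and with 1 library per group no p-value is given.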

Additional observations from a re-analysis of the deposited data

How the results depend on the processing

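The calls of Nrp2, Cd6 and Ica1 as lower in H3K27me3 in rescue held under the main scaling, edgeR's TMM, DESeq2's size factors, olfactory receptor scaling, totals of all rows and a 2-fold rule, with ratios of 0.119 to 0.133, 0.372 to 0.414 and 0.121 to 0.135 against deleted, and 0.130 to 0.137, 0.441 to 0.462 and 0.136 to 0.143 against floxed. For Cd6 in deleted against floxed the ratio of 1.20 was 1.07 with olfactory receptor scaling, still not called. With prior counts of 0.5 and 5 the log2 ratio of rescue against deleted was -3.03 and -2.89 for Ica1, -3.05 and -2.92 for Nrp2 and -1.43 and -1.41 for Cd6. None of these settings reversed a called ratio. H3K4me3 ratios with a library at 0 counts, all those of Ica1 and those of Cd6 with the deleted library, could not be given. Flag summits near the 3 genes stayed at 0 within 50 kb. Asking for scores of at least 10 could only leave a count of 0 as it was. Alternatives for flanking and listed genes were chosen after seeing the data. Around Cd6 the genes lower in rescue than in both were 3 with TMM and DESeq2 factors, 2 with olfactory receptor scaling and 1 with a 2-fold rule, which left 1 lower than floxed. The 2-fold rule left 0 lower than both around Nrp2. Of the Nrp2 list it left 0 lower than deleted and 1 lower than floxed, and TMM and olfactory receptor scaling left 1 lower than deleted. Of the Cd6 list it left 1 lower than deleted, 0 lower than floxed and 1 higher than floxed, and of the Ica1 list 1 higher than floxed, while olfactory receptor scaling raised the genes higher than deleted to 4. Of the T cell markers it left 2 lower than deleted and 0 lower than floxed. TMM and DESeq2 factors raised the genes higher than floxed to 1 among the T cell markers and around Nrp2, and TMM did so in the Nrp2 list, where olfactory receptor scaling put 1 gene higher than deleted. The number of genes called over the whole table moved by over 1.5 times in the cases that follow. It stayed within 1.5 times with TMM factors, DESeq2 factors and totals of all rows. With a 2-fold rule, H3K27me3 gave 484 genes lower and 323 higher in rescue against deleted, 319 lower and 289 higher in rescue against floxed and 145 lower and 177 higher in deleted against floxed. With a 2-fold rule, H3K4me3 gave 194 genes lower and 80 higher in rescue against deleted, 98 lower and 20 higher in rescue against floxed and 70 lower and 42 higher in deleted against floxed. With a 2-fold rule, 230 genes were lower in rescue than in both. With averages of 50 counts or more, H3K27me3 gave 734 genes lower in rescue against deleted, 528 lower and 399 higher in rescue against floxed and 276 higher in deleted against floxed. With averages of 50 counts or more, H3K4me3 gave 192 genes lower and 179 higher in rescue against deleted, 116 lower and 64 higher in rescue against floxed and 128 lower and 68 higher in deleted against floxed. With averages of 100 counts or more, H3K27me3 gave 384 genes lower and 430 higher in rescue against deleted, 268 lower and 276 higher in rescue against floxed and 324 lower and 107 higher in deleted against floxed. With averages of 100 counts or more, H3K4me3 gave 30 genes lower and 14 higher in rescue against deleted, 9 lower and 4 higher in rescue against floxed and 5 lower and 2 higher in deleted against floxed. With averages of 100 counts or more, 208 genes were lower in rescue than in both. With no filter, H3K27me3 gave 1149 genes higher in rescue against deleted, 1000 higher in rescue against floxed and 840 higher in deleted against floxed. With no filter, H3K4me3 gave 629 genes lower in rescue against deleted, 335 higher in rescue against floxed and 507 higher in deleted against floxed. With olfactory receptor scaling, H3K27me3 gave 1244 genes higher in rescue against deleted and 1180 lower and 235 higher in deleted against floxed. With olfactory receptor scaling, H3K4me3 gave 133 genes lower and 1555 higher in rescue against deleted and 77 lower and 820 higher in rescue against floxed. Fewer genes enter under a higher minimum. Olfactory receptor scaling rests on 363 (rescue), 496 (deleted) and 729 (floxed) H3K4me3 counts, and shifted the median over all measured genes, on the log2 scale, to 0.39 against 0.03 with library totals in rescue against deleted, and to 0.28 against -0.01 in rescue against floxed. For H3K27me3 these medians were 0.09 against -0.06 in rescue against deleted and -0.15 against 0.02 in deleted against floxed. No paired analysis was possible because each group has 1 library. The H3K4me3 depth limits what can be said of Cd6 and Ica1.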

Other observations

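Genes with lower H3K27me3 in rescue than in both other libraries were looked at for H3K4me3 after the 3 genes had been described. Of the 559 genes, 151 were measured for H3K4me3. In rescue against deleted 3 of the 151 (1.99%) were higher and 5 (3.31%) lower, with a median log2 ratio of 0.04. Of the other 2166 genes measured for both marks, 67 (3.09%) were higher and 272 (12.6%) lower, with a median of -0.10. In rescue against floxed 5 genes of the 151 were higher and 5 lower, against 45 higher and 148 lower of the 2166. Nrp2 was among the 151 and was not called.

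The 559 genes were spread over the genome. On the chromosomes of Nrp2, Ica1 and Cd6 they made up 25 of 691 measured genes of chromosome 1 (3.62%), 39 of 588 of chromosome 6 (6.63%) and 20 of 321 of chromosome 19 (6.23%). Over the autosomes the share ran between 2.97% on chromosome 16 and 7.37% on chromosome 12. Mical3, next to Ica1 and Nrp2 in its course, is also on chromosome 6.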
